A study of Mus musculus with 6 samples.

Results

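Microtubules are hollow polymers of α- and β-tubulin dimers that fill the axon and carry its transport. Growing neurons control them through several protein families: γ-tubulin starts new polymers, stathmins bind free dimers and promote shrinkage, structural microtubule-associated proteins (MAPs) and the doublecortin family bind and stabilise the lattice, collapsin response mediator proteins (CRMPs) bind tubulin and link guidance cues to growth, and end-binding (EB) proteins ride on growing plus ends. The genes of these families were examined in sensory neurons sorted from mouse embryos. The neurons came from dorsal root ganglia, which hold the cell bodies of sensory axons along the spinal cord. The 37 genes, taken from a list of symbols, comprised 5 α-tubulins, 8 β-tubulins, 1 γ-tubulin, 4 stathmins, 8 structural MAPs, 3 genes of the doublecortin family, 5 CRMPs and 3 EB proteins. All 37 were found among the 41388 genes listed, and 36 passed the filter on low counts. Tubb1, the β-tubulin known from platelets, did not.

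The cells came from C57BL/6 embryos at 18.5 days post coitum, from ganglia T11 to S1, and were sorted for EGFP, a green fluorescent protein. The genotype was RetFloxedEGFP with Scn10a tm2(cre)Jnw, in which Cre recombinase is made from the locus of Nav1.8, a sodium channel of pain-sensing neurons, and EGFP marks cells of the Ret population that have expressed Cre. Every library carried these alleles, so there was no control free of them. Male C belongs to a later record than the other libraries, and its label gives a shortened genotype, although its title names both alleles. Of 6 libraries, 3 were female and 3 male: the 3 female libraries and male A were each made from 40 ganglia of 2 embryos, male B from 60 ganglia of 3 embryos and male C from 20 ganglia of 1 embryo. Between 15693013 and 24033601 reads per library were counted to genes. The sort genes were present, with Scn10a at 119 ± 16.8 RPKM (SD, n = 6) and Ret at 27.8 ± 3.83 RPKM. RPKM is the read count divided by library size and gene length, here with library sizes normalised by TMM, and is used for every comparison of levels between genes. Transcripts of other cells were also counted. The 11 markers of satellite glia and Schwann cells, all detected in every library, summed to between 892 and 1071 RPKM per library against 2093 to 2597 RPKM for 10 sensory neuron markers. Their highest genes were Pmp22 at 346 RPKM, Fabp7 at 311 RPKM and Apoe at 175 RPKM, while Sox10, which defines the lineage, was at 3.79 RPKM. The 7 markers of dividing cells summed to between 9.90 and 14.8 RPKM, 7 of fibroblasts to between 149.8 and 175 RPKM with Dcn at 133 RPKM, and 7 of endothelium and pericytes to between 13.4 and 18.8 RPKM. The 8 blood and macrophage genes summed to between 41.0 RPKM in male C and 1247 RPKM in male A. Nearly all of that was globin, with Hbb-bs highest at a mean of 163 RPKM, while Ptprc, Cd68, Csf1r and Aif1 averaged 0.027 to 0.335 RPKM. What part of the tubulin signal came from such cells was not tested. In these bulk samples, fewer cells of a type and less RNA per cell cannot be told apart.

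Tubulin genes are close copies of each other, and 3 β-tubulin sequences are shown because they bear on how well reads can be given to a gene. Each is the last 75 coding bases before the stop codon, the stretch that encodes the acidic tail on which tubulins are modified and differ most, 5′ to 3′ on the coding strand, from GENCODE release M21 on GRCm38. Capitals in Tubb2b mark the bases that differ from Tubb2a, and in Tubb3 they mark the last codon.
Tubb2a, chr13:34074471-34074545, minus strand: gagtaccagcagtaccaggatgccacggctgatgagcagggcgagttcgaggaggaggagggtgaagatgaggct
Tubb2b, chr13:34127474-34127548, minus strand: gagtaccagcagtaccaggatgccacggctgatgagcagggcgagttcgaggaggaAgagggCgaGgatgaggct
Tubb3, chr8:123421605-123421679, plus strand: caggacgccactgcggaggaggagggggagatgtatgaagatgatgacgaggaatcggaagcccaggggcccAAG

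The tails of Tubb2a and Tubb2b differed at 3 of 75 bases, and their whole coding sequences were 96.48% identical over 1335 coding bases. Sharing was then measured over whole annotated transcripts as the percentage of a gene's 50-base words that also occur in another annotated gene, pseudogenes included. It was 75.5% for Tuba1a, 75.1% for Tuba1b and 52.7% for Tuba1c, all on chromosome 15 and sharing words with each other. It was 49.6% for Tubb2a, with 45.6% in Tubb2b alone, and 36.9% for Tubb2b. Tubb4b shared 41.3%, most of it with Tubb4b-ps1, and Tuba4a shared 35.4%, most of it with the overlapping gene Stk16. Tuba8 shared 14.7% and Tubg1 shared 11.1%, the latter mostly with Tubg2. In contrast, no word of Tubb3, the neuron-type β-tubulin, or of Tubb6 occurred elsewhere, and Tubb5 and Tubb4a shared 0.090% and 0.18%. Outside the tubulins only Stmn1 shared more than 10% of its words (18.9%), and none of the 5 CRMPs shared any. The counting of reads that match several genes is not stated in the sources used here, so the levels of Tuba1a, Tuba1b, Tuba1c, Tuba4a, Tubb2a, Tubb2b and Tubb4b are uncertain in a way that the spread between libraries does not show. Tuba1c, in which 46.9% of the words of Tuba1a occur, had 60 to 98 reads per library, beside 112285 to 202782 for Tuba1a. Which counting rule would give such numbers was not tested.

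**Figure D1:**
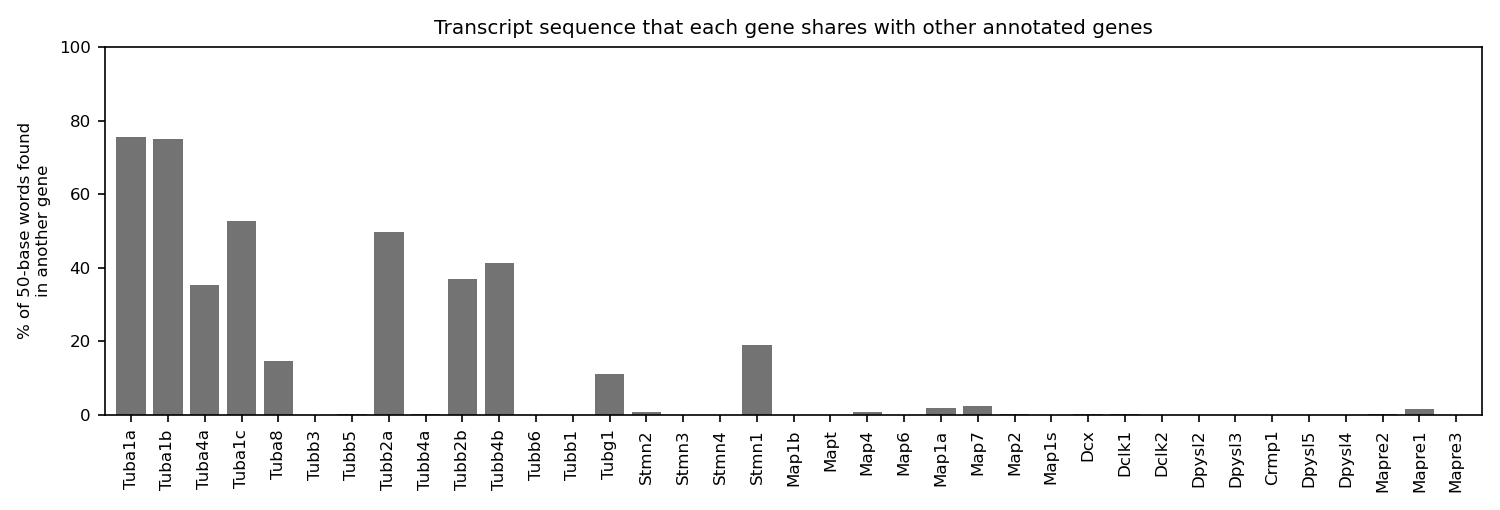
Percentage of each gene's 50-base transcript words that also occur in another annotated gene, for the 37 genes in the order of their families. The bars of Tuba1a (75.5%) and Tuba1b (75.1%) are the tallest, Tubb3 is at 0, and the MAPs, CRMPs and EB proteins lie near or at 0.

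The stathmins differ at the other end of the protein. The first 90 coding bases of the 4 genes are shown because Stmn2, Stmn3 and Stmn4 are known for a lipid-modified start that holds them on membranes, which Stmn1 lacks. Coordinates span 2 exons on GRCm38, and capitals mark TGC and TGT codons, the codons of cysteine, in the reading frame.
Stmn1, chr4:134470163-134470743, plus strand: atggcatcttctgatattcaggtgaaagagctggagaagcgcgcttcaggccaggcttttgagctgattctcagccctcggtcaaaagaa
Stmn2, chr3:8509612-8541911, plus strand: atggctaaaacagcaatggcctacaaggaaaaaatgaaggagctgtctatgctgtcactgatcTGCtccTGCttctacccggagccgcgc
Stmn3, chr2:181309172-181314212, minus strand: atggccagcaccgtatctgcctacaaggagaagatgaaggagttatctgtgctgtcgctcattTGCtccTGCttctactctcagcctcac
Stmn4, chr14:66354433-66355662, plus strand: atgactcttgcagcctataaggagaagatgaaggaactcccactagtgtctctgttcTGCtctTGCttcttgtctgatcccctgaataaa

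Stmn2, Stmn3 and Stmn4 each held 2 such codons, separated by 1 other codon, and Stmn1 held 0 in its whole coding sequence of 447 bases.

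The 37 genes together took 5.59 ± 0.358% of all counted reads (SD, n = 6), from 5.05% in female A to 6.14% in male C. Their median level was 58.2 RPKM, against 3.93 RPKM over the 15026 genes that passed the filter, and 33 of the 37 lay above that value. Of the 26 listed genes above 1000 RPKM, 6 belonged to these families, as did 15 of the 633 above 100 RPKM. By summed level, the α-tubulins (4907 ± 504 RPKM), β-tubulins (5072 ± 914 RPKM) and stathmins (4729 ± 378 RPKM) lay within each other's spread when divided by the deposited gene length. If reads in sequence shared with other genes had all been left out of the counts, the sums would be 20015 ± 2062, 5989 ± 979 and 4768 ± 382 RPKM, with the α-tubulins above the other 2 families, so the order of these families depends on a counting rule that is not known here. The CRMPs followed with 3496 ± 524 RPKM, then the MAPs with 877 ± 108 RPKM, the EB proteins with 159.7 ± 9.99 RPKM and the doublecortin family with 65.6 ± 9.79 RPKM. In each of the 3 highest families and in the CRMPs, 1 or 2 genes held most of the level. The deposited GRCm38 coordinates place the leading genes of the larger families, Tuba1a (ENSMUSG00000072235) at chr15:98949841-98953551, Tubb3 (ENSMUSG00000062380) at chr8:123411424-123422015, Stmn2 (ENSMUSG00000027500) at chr3:8509527-8561604, Map1b (ENSMUSG00000052727) at chr13:99421464-99516602 and Dpysl2 (ENSMUSG00000022048) at chr14:66802864-66868688.

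**Figure D2:**
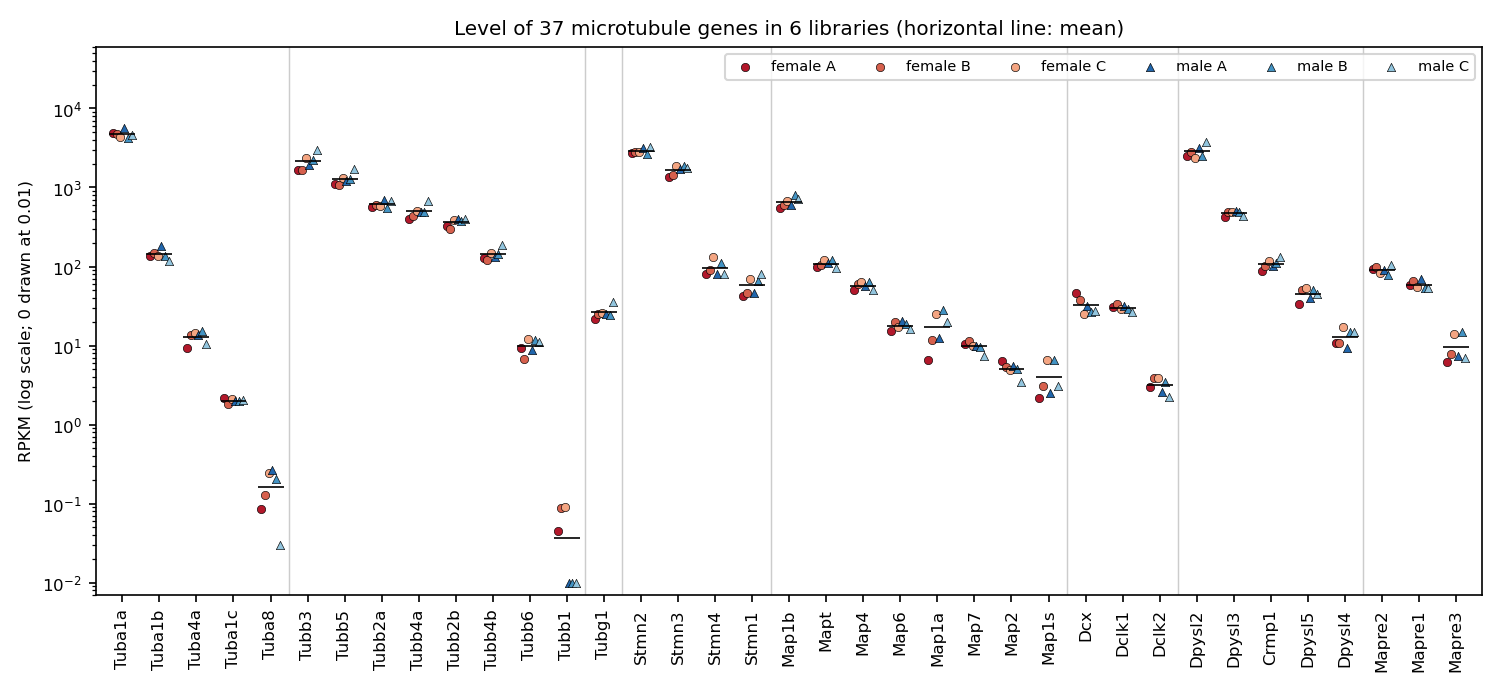
Level of each of the 37 genes in RPKM on a log axis, with circles for the 3 female and triangles for the 3 male libraries and a line at the mean of 6. Tuba1a, Stmn2, Dpysl2, Tubb3, Stmn3 and Tubb5 lie above 1000 RPKM, and Tuba8 and Tubb1 lie below 1 RPKM.

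Among the α-tubulins, Tuba1a, the form known from young neurons, stood far above the rest. It measured 4902, 4716 and 4382 RPKM in females A, B and C and 5628, 4278 and 4589 RPKM in males A, B and C, a mean of 4749 ± 486 RPKM. Tuba1b, a widely expressed α-tubulin, measured 137, 150.3 and 135 RPKM in the females and 184, 135 and 116 RPKM in the males. Male A was the highest library for both genes, and the sexes overlapped for both. Tuba1a took 96.8 ± 0.302% of the summed α-tubulin level and Tuba1b took 2.90 ± 0.266%. Tuba4a was at 12.8 ± 2.31 RPKM, Tuba1c at 2.01 ± 0.109 RPKM and Tuba8 at 0.160 ± 0.094 RPKM. The order of these 5 genes was the same in 6 of 6 libraries. Tuba8 rested on 1 to 13 reads per library, too few to show moderate differences.

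The β-tubulin level was spread over more genes. Tubb3, the neuron-type β-tubulin often used as a neuronal marker, measured 1679, 1662 and 2379 RPKM in females A, B and C and 1954, 2246 and 2994 RPKM in males A, B and C. Tubb5, a widely expressed β-tubulin, measured 1103, 1083 and 1330 RPKM in the females and 1207, 1296 and 1723 RPKM in the males. Male C was the highest library for both, females A and B were the lowest, and the sexes overlapped. Tubb3 exceeded Tubb5 in 6 of 6 libraries, by 0.72 ± 0.099 on the log2 scale. Their shares of the summed β-tubulin level were 42.1 ± 2.56% and 25.5 ± 0.599%. The deposited length of Tubb5 is 3327 bases and that of Tubb3 is 1868 bases, so that by reads alone, without division by length, Tubb5 took 37.6% and Tubb3 took 34.97%. Tubb2a was at 611 ± 59.4 RPKM, Tubb4a at 501 ± 97.4 RPKM, Tubb2b at 364 ± 44.5 RPKM and Tubb4b at 143 ± 23.1 RPKM. By deposited length, Tubb2a exceeded Tubb4a in 5 of 6 libraries, the exception being male C. Every other neighbouring pair of β-tubulins kept its order in all 6 by that length. If all reads in shared sequence had been left out of the counts, the share of Tubb2a would be 20.5%, beside 35.6% for Tubb3 and 21.5% for Tubb5. The mean level of Tubb2b would then be 577 RPKM, above Tubb4a at 502 RPKM. Tubb6 was at 9.98 ± 2.03 RPKM. Tubb1 had 1, 3 and 3 reads in females A, B and C and 0 in each male library, which allows up to 0.0974, 0.089 and 0.143 RPKM in males A, B and C. These limits, from 3 reads, cover counting error only, and with female values of 0.0448 to 0.0896 RPKM no difference was detectable at this depth.

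Tubg1, the γ-tubulin of microtubule-organising centres, measured 21.6, 24.8 and 26.1 RPKM in females A, B and C and 25.3, 24.6 and 35.8 RPKM in males A, B and C. Male C stood above the other 5 libraries, which lay close together.

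Of the stathmins, Stmn2, a neuronal stathmin of growth cones, measured 2727, 2778 and 2798 RPKM in females A, B and C and 3131, 2665 and 3280 RPKM in males A, B and C. Stmn3 measured 1371, 1446 and 1856 RPKM in the females and 1727, 1890 and 1780 RPKM in the males. Stmn2 was the higher gene in 6 of 6 libraries, and the sexes overlapped for both. They took 61.3 ± 3.44% and 35.4 ± 2.98% of the summed stathmin level. Stmn4 was at 95.5 ± 21.1 RPKM. Stmn1, the only stathmin of the 4 without TGC or TGT codons in the start shown above, was lowest on average at 58.2 ± 15.0 RPKM. In male C Stmn4 and Stmn1 were level, at 79.6 RPKM each, and with only the length that no other gene shares Stmn1 would be at 98.1 RPKM there and above Stmn4, which would then be higher in 5 of 6 libraries.

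Map1b, the MAP known from growing axons, led the structural MAPs with 556, 601 and 676 RPKM in females A, B and C and 594, 800.1 and 717 RPKM in males A, B and C. Mapt, which encodes tau of axons, measured 99.2, 104 and 119 RPKM in the females and 111, 119.9 and 95.4 RPKM in the males. Map1b took 74.9 ± 2.11% of the summed MAP level and Mapt took 12.4 ± 1.23%. Map4, a MAP of many cell types, was at 57.3 ± 5.67 RPKM and stayed below Mapt in 6 of 6 libraries, by 0.91 ± 0.056 on the log2 scale. Map6, known for protecting microtubules against cold, was at 17.9 ± 2.13 RPKM. Map7, which recruits kinesin, was at 9.76 ± 1.36 RPKM, and Map2, the MAP of dendrites and cell bodies, at 5.10 ± 0.937 RPKM. Map1a and Map1s, relatives of Map1b, averaged 17.2 ± 8.30 and 3.99 ± 2.03 RPKM. Because of their spread, Map6 and Map1a kept their order in only 3 of 6 libraries, Map1a and Map7 in 5, and Map2 and Map1s in 4.

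Dcx, the doublecortin of migrating and growing neurons, measured 46.2, 37.7 and 25.2 RPKM in females A, B and C and 31.7, 26.6 and 27.7 RPKM in males A, B and C. Dclk1, a doublecortin-like kinase, measured 30.6, 33.4 and 28.9 RPKM in the females and 31.2, 28.8 and 26.4 RPKM in the males. Dcx was above Dclk1 in 4 of 6 libraries, and the 2 levels did not differ beyond their spread. Dclk2 was at 3.18 ± 0.670 RPKM.

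Among the CRMPs, Dpysl2, which encodes CRMP2, measured 2535, 2823 and 2372 RPKM in females A, B and C and 3131, 2511 and 3776 RPKM in males A, B and C. Dpysl3, which encodes CRMP4, measured 418, 483 and 492 RPKM in the females and 499.4, 493 and 439 RPKM in the males. Male C was highest for Dpysl2 and among the lowest for Dpysl3. Dpysl2 took 81.4 ± 2.86% of the summed CRMP level and Dpysl3 took 13.7 ± 2.17%. Crmp1 was at 109.03 ± 14.7 RPKM, Dpysl5 at 45.5 ± 7.77 RPKM and Dpysl4 at 12.9 ± 3.08 RPKM, and the order of the 5 genes held in 6 of 6 libraries.

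Of the EB proteins, Mapre2, which encodes EB2, measured 92.6, 99.3 and 82.7 RPKM in females A, B and C and 90.1, 77.2 and 105 RPKM in males A, B and C. Mapre1, which encodes EB1, measured 57.9, 65.5 and 55.8 RPKM in the females and 68.6, 53.6 and 53.6 RPKM in the males. Mapre2 was above Mapre1 in 6 of 6 libraries. Mapre3, which encodes EB3 and is best known from neurons, was the lowest of the 3 with 9.48 ± 3.85 RPKM, below Mapre1 in all 6.

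**Figure D3:**
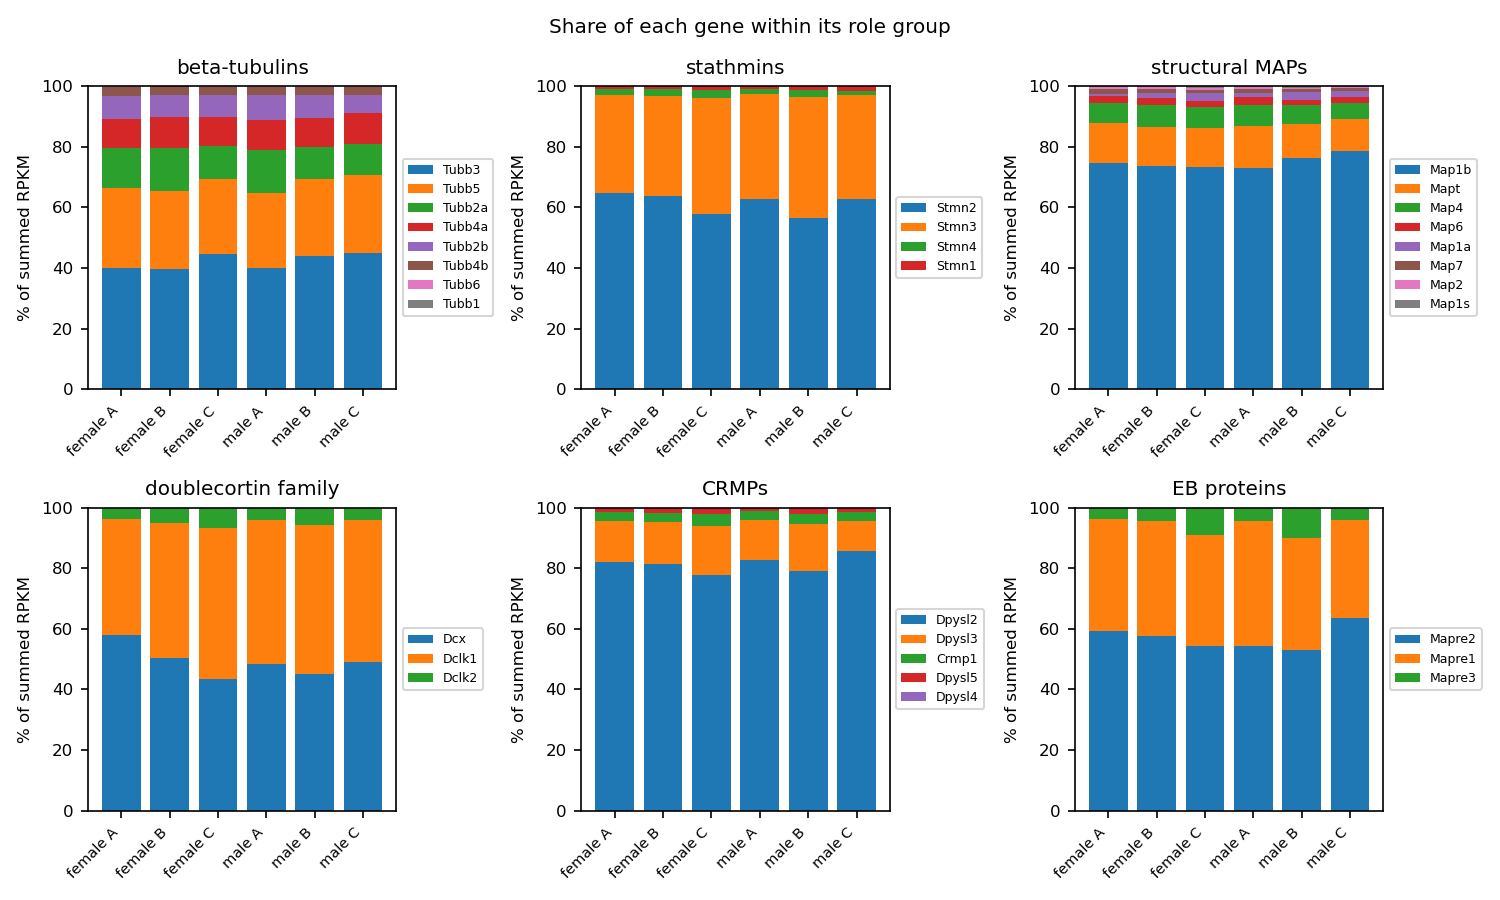
Share of each gene in the summed RPKM of its family, in percent, with 1 stacked bar for each of the 6 libraries. Map1b and Dpysl2 fill most of their bars in every library, whereas Tubb3 fills 39.5% to 44.9% of the β-tubulin bars and Dcx 43.5% to 57.9% of the doublecortin bars.

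Across all 37 genes ranked by level, 12 of the 36 neighbouring pairs kept their order in all 6 libraries. Tuba1a was above Stmn2 in 6 of 6. Stmn2 and Dpysl2 changed places between libraries (3 of 6), as did Map1b and Tubb2a (3 of 6) and Tubb4a and Dpysl3 (2 of 6). So did Tubb4b and Tuba1b (3 of 6) and Crmp1 and Mapt (1 of 6). These orders use the deposited length. With only the length that no other gene shares, mean levels would be 1212 RPKM for Tubb2a beside 657 RPKM for Map1b. They would be 573 RPKM for Tuba1b beside 244 RPKM for Tubb4b.

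The levels varied little between libraries for most of these genes. The median coefficient of variation (SD over mean) was 16.6% over the 36 that passed the filter and 20.96% over all 15026 genes. Among genes above 100 CPM (reads scaled to library size) it was 13.5% for 25 of these genes and 14.9% for all 2095, so that at like abundance the medians lay close. The smallest coefficients belonged to Tuba1c (5.45%), Dpysl3 (7.18%), Dclk1 (8.11%) and Stmn2 (8.57%). Tuba1c rested on 60 to 98 reads per library, where counting error alone is large beside a coefficient of this size, so it cannot be called the steadiest gene. The 3 largest coefficients belonged to Tuba8 (58.7%), Map1s (50.8%) and Map1a (48.1%), followed by Mapre3 (40.6%). Tuba8 rested on 1 to 13 reads per library, where counting error is also large.

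Map1a measured 6.51, 11.8 and 24.9 RPKM in females A, B and C and 12.5, 27.8 and 19.9 RPKM in males A, B and C. Map1s measured 2.18, 3.04 and 6.53 RPKM in the females and 2.53, 6.61 and 3.05 RPKM in the males. Tuba8 measured 0.0850, 0.129 and 0.245 RPKM in the females and 0.267, 0.206 and 0.0303 RPKM in the males. Female C and male B were the 2 highest libraries for Map1a, Map1s and Mapre3 alike, and female A was the lowest for these 3 genes. Dcx ran the other way, highest in female A and lowest in female C and male B.

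Each library was also set against the mean of the other 5 on log2 CPM, as a description without a test, since 1 library stands against 5. In female A, 5 of 36 genes lay past 1.5-fold, where 18.6% of all genes did: Dcx was higher, and Tuba8, Map1a, Map1s and Mapre3 were lower. In female B the count was 1 (Tubb6, lower), against 10.2% of all genes. In female C, Tuba8, Map1a, Map1s and Mapre3 were higher, 4 of 36 against 14.8% of all genes. In male A, Tuba8 was higher and Map1s lower, 2 of 36 against 13.1%. In male B, Map1a, Map1s and Mapre3 were higher, 3 of 36 against 16.8%. In male C, the library from 1 embryo, Tubb3 and Stmn1 were higher and Tuba8 and Map2 lower, 4 of 36 against 21.1%. In each library the share of these genes past 1.5-fold was below that of all genes. These shares are not matched for abundance, since 25 of the 36 genes lay above 100 CPM but only 2095 of all 15026, so they show no trait of these genes apart from their level.

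**Figure D4:**
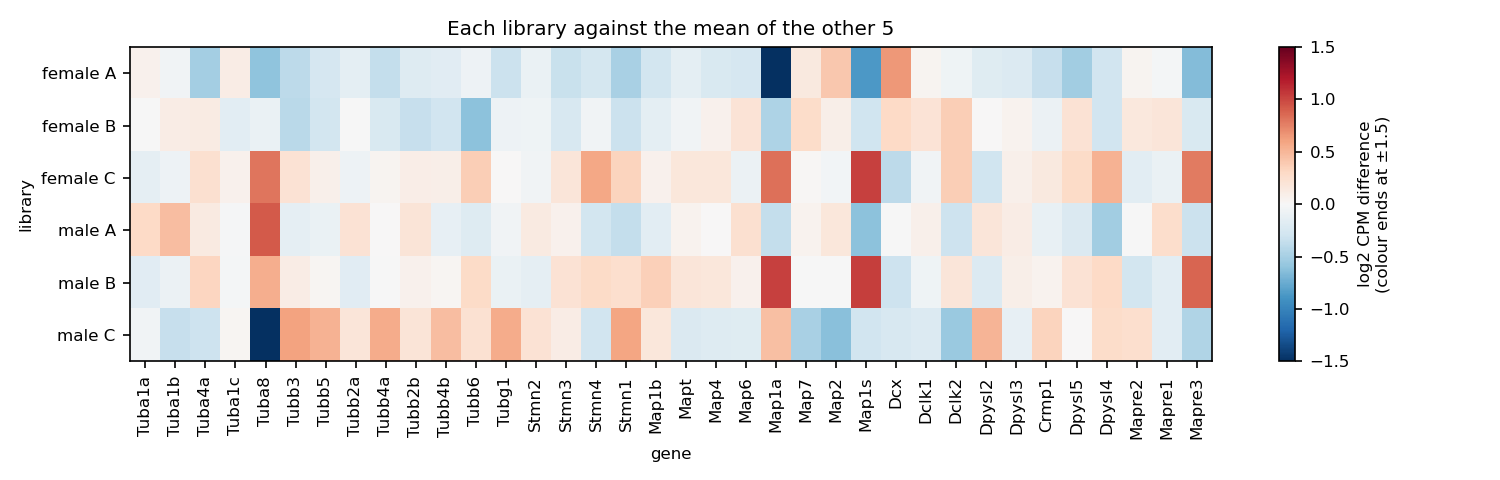
Difference of each library from the mean of the other 5 in log2 CPM, for 36 genes in family order (red higher, blue lower, colour ends at 1.5 either way). Map1a, Map1s and Mapre3 are blue in female A and red in female C and male B, and Dcx shows the reverse.

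Base composition moved with these deviations. Across 14938 tested genes, the rank correlation between a library's deviation and transcript GC content was -0.62 in female A, -0.32 in female B, 0.54 in female C, -0.36 in male A, 0.48 in male B and 0.18 in male C. Genes within a library are not independent replicates, and these correlations are descriptions. Over the 36 genes alone the values ran from -0.53 in female A to 0.43 in female C. Map1s has a GC content of 61.8%, Map1a 55.4% and Mapre3 55.2%, and Dcx has 41.6%, beside a median of 49.7% over tested genes. With each library's GC trend removed, a step added after these deviations were seen, the coefficient of variation fell from 50.8% to 21.9% for Map1s and from 24.8% to 11.7% for Dcx. It was 38.0% for Map1a, 30.3% for Mapre3 and 45.8% for Tuba8 in that setting. The coefficient was smaller in 24 of the 36 genes and larger in 12. It rose from 10.2% to 15.9% for Tuba1a, from 16.1% to 25.3% for Tuba1b, from 5.45% to 12.6% for Tuba1c, from 9.72% to 16.1% for Tubb2a, from 8.57% to 14.4% for Stmn2 and from 11.9% to 22.7% for Map6, the 6 genes whose coefficient grew by more than 1.5 times. It fell by more than 1.5 times for 5 genes. Their median was 15.4%, and the median of all genes was 17.6%.

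Sex is the factor by which the labels group the libraries, and female libraries were compared with male ones over all genes with edgeR's quasi-likelihood test. Of the 15026 genes, 5 passed an adjusted p of 0.05 (0.0333%), the Y-linked Ddx3y, Eif2s3y, Kdm5d and Uty, and Xist. None of the 36 tubulin, stathmin, MAP, doublecortin, CRMP and EB genes passed by edgeR, and the count was also 0 by DESeq2 and by limma-voom. At an unadjusted p under 0.05, edgeR gave 0 of these 36 against 166 of all genes (1.10%). The 3 libraries of one sex lay wholly above those of the other for 0 of the 36 genes, and for 5.7% of all genes. The labels name no litters, and the male group mixes 1 embryo with pools, so p-values measure the spread between these libraries.

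The 4 genes of smallest p were Tubb4a, Dcx, Tubb3 and Dpysl2, none of which passed. Tubb4a, a β-tubulin of neurons and oligodendrocytes, measured 401, 431 and 507 RPKM in the 3 females and 496, 491 and 681 RPKM in the 3 males, and the sexes overlapped. The log2 difference, female minus male, was -0.32 for Tubb4a (SE 0.18, unadjusted p = 0.109, adjusted p = 0.9997 by edgeR). It was 0.34 (SE 0.22) for Dcx, which lies on the X chromosome, -0.33 (SE 0.21) for Tubb3 and -0.28 (SE 0.18) for Dpysl2, each with an adjusted p of 0.9997. Male C was the highest library for Tubb4a, Tubb3 and Dpysl2. Without it their values were -0.15, -0.14 and -0.13. For Dcx the value was 0.13 without female A, 0.55 without female C and 0.20 with GC trends removed. With GC trends removed the values were -0.21 for Tubb4a, -0.22 for Tubb3 and -0.33 for Dpysl2. Without female C it was -0.52 for Tubb3. Over all alternatives run the values ranged from 0.13 to 0.55 for Dcx, -0.56 to -0.14 for Tubb3, -0.50 to -0.15 for Tubb4a and -0.42 to -0.13 for Dpysl2, with adjusted p-values of 0.78 or more. The unadjusted p by edgeR fell under 0.05 in some of these settings. Without female C and male B, a setting added after the data were seen, it ran from 0.019 (Dcx) to 0.035 (Dpysl2) over the 4 genes. The fitted value was lower in females for 7 of 7 tested β-tubulins and higher for 3 of 3 doublecortin genes, with no member passing. Genes of a family are not independent results, and male C lay above the mean of the other 5 libraries for each of these β-tubulins, by 0.18 (Tubb2a) to 0.61 (Tubb3) in log2 CPM. Over the 36 genes the fitted value was higher in females for 11 and lower for 25, with a median of -0.063, beside 49.1% higher and a median of -0.005 over all genes. The 10 markers of the sorted sensory neurons had a median of -0.13, with 2 higher in females and 0 passing, and the part of neuron content in the values of the microtubule genes was not tested. The estimates ran from -0.48 for Map1a to 0.36 for Dclk2. The 95% interval lay within a 2-fold difference either way for 33 of 36 genes, and its distance from the estimate ran from 0.33 to 1.56 on the log2 scale. Differences between the sexes smaller than that were not detectable here. These intervals are not adjusted for the number of genes tested, so differences larger than these distances could also fail to pass the adjusted threshold.

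**Figure D5:**
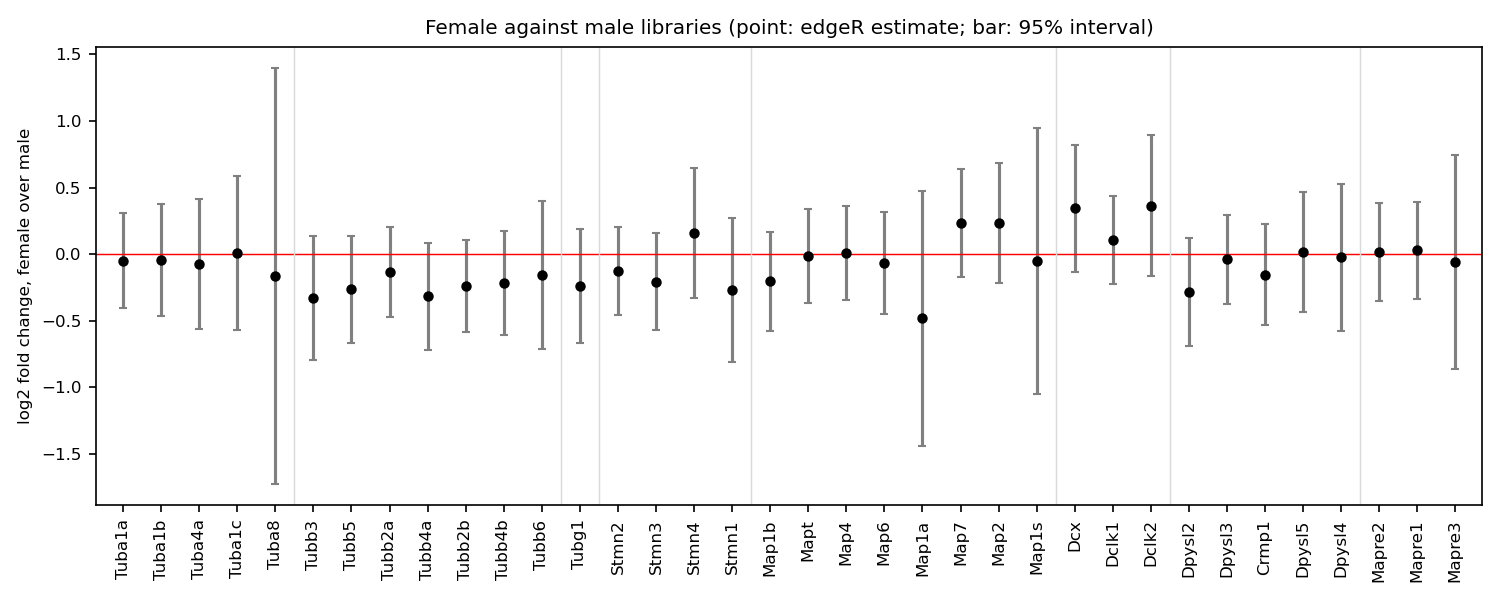
Log2 fold change, female over male, for 36 genes, with edgeR's estimate as a point and its 95% interval as a bar. Every interval crosses 0, and the interval of Tuba8 is the widest.

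Microtubules also need genes that fold, modify, cut and anchor tubulin, and 128 such genes outside the 37 were read from 6 lists. Their median level was 7.96 RPKM, and 123 passed the filter on low counts. None of the 123 differed between the sexes by edgeR, against 0.0333% of all genes, and 0 had an unadjusted p under 0.05. By DESeq2 and by limma-voom 0 passed as well. The median log2 fold change was -0.051 with 52 higher in females.

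Of 21 genes that fold tubulin or assemble its dimer, subunits of the chaperonin CCT were highest, with Cct7 at 335 ± 50.8 RPKM, Cct5 at 328 ± 42.5 RPKM and Cct6a at 279 ± 13.4 RPKM, and Tbcel was lowest at 4.03 ± 0.372 RPKM. Arl2 had the smallest p for sex in that list, with a log2 fold change of -0.26, female over male. Among 24 genes of tubulin-modifying enzymes, Svbp, the partner of the vasohibins that remove the last tyrosine of α-tubulin, was at 55.7 ± 2.61 RPKM. Ttll1, of the polyglutamylase complex, was at 54.1 ± 8.41 RPKM and Ttll7, which also adds glutamates to tubulin tails, at 36.6 ± 8.50 RPKM. Agbl2 was lowest at 0.0245 RPKM and Ttll4 had the smallest p, with a log2 fold change of 0.60. Of 31 genes that sever microtubules or act at their ends, Clasp2, which stabilises plus ends, was at 84.9 ± 9.03 RPKM, Clip3 at 76.3 ± 10.5 RPKM and Ndel1, a partner of dynein, at 40.5 ± 8.29 RPKM. Fignl2 was lowest at 0.0982 RPKM and had the smallest p, with a log2 fold change of 1.03 (SE 0.54). It rested on 2 to 16 reads per library, where counting error is large.

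In the list of 18 other MAPs and related growth genes, Gap43, a growth cone protein, reached 1340 ± 101 RPKM, Tppp3 was at 493 ± 88.2 RPKM and Map1lc3b, a light chain relative that is best known from autophagy, at 134 ± 22.3 RPKM. Dcdc2a was lowest at 0.0747 RPKM, and Tppp had the smallest p, with a log2 fold change of 0.52. Of 14 other tubulin and γ-tubulin ring genes, Mzt1 was at 42.6 ± 2.60 RPKM, Mzt2 at 30.1 ± 5.62 RPKM and Tubg2, the second γ-tubulin, at 17.8 ± 3.67 RPKM. Tubal3 was lowest at 0.0163 RPKM, and Mzt2 had the smallest p, with a log2 fold change of -0.31. Among 20 kinases that act on MAPs, stathmins or CRMPs, Gsk3b was at 173 ± 33.2 RPKM, Cdk5 at 87.2 ± 14.4 RPKM and Mapk10 at 21.4 ± 2.29 RPKM. Mark4 was lowest at 0.404 RPKM, and Mapk8 had the smallest p, with a log2 fold change of 0.24. None of these sex differences passed the test.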

How the data were processed

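RNA was sequenced from 6 libraries after amplification with a SMARTer ultra-low-input kit, per the labels' protocols. The authors deposited, for each library, whole-number read counts, CPM and RPKM for 41388 genes. Per the submitters' processing notes, featureCounts 1.4.5 of Subread was used with GRCm38.p2. The aligner and the settings for strand and multiple matches are not stated in the sources used here. The deposited CPM and RPKM were recomputed from the counts and deposited lengths and matched for every gene, and were used for that check alone.

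Symbols came from GENCODE M21 by Ensembl identifier (40254 identifiers, 97.26%). Levels were averaged over the 6 libraries as 1 sorted population, after TMM scaling in edgeR 4.0.16 (R 4.3.3; factors 0.947 to 1.04). Genes passing filterByExpr were tested with edgeR's two-sided quasi-likelihood test, with Benjamini-Hochberg adjustment over all genes at 0.05. The step was also run on simulated counts as a check of the code. Those counts held no GC trend, so the check does not measure power in these data. Log2 CPM used a prior count of 2. Alternatives were RLE or upper-quartile scaling, testing without a filter or with 1 CPM in 3 libraries, DESeq2 1.42.0, limma-voom (limma 3.58.1), the letter as a block, pool size as a covariate, CPM in place of RPKM, a 2-fold threshold and each library left out. GC trends (lowess span 0.3, with GC content for 99.4% of tested genes), lengths without shared words and leaving out female C and male B were added after the data were seen.

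The genes and lists were chosen with earlier results of these data known. The rule for named genes gave per-library values for the 2 highest genes of each family, Tubg1 and the 3 of highest coefficient of variation, sex differences for the 4 of smallest p, and, for each other list, the 3 highest, the lowest and the gene of smallest p; values of other genes are given more briefly. Other genes were named for their coefficients of variation with their values in view. The coding ends of the α-tubulin genes are not reported here.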

Additional observations from a re-analysis of the deposited data

Results flagged for a closer look

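Of 44 sets of 6 values examined (37 levels and 7 family shares), 1 held a library far from the others. Tubg1 was at 35.8 RPKM in male C, and the nearest library was at 26.1 RPKM. The gap was 0.688 of the whole range, above Dixon's 95% critical value for 6 values, a limit that chance passes in about 1 of 20 groups. Male C held 20 ganglia from 1 embryo and belongs to a later record than the other libraries, and the part of either difference in the result was not tested.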

How the results depend on the processing

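The count of 0 tubulin and associated genes differing between sexes held under every alternative run, the replicate block included, in which 5 genes were called and the median log2 fold change over these genes was -0.077. Correlations of deviations between libraries of the same letter were 0.28 (A), -0.29 (B) and -0.077 (C). Between different letters they ran from -0.48 (female C with male A) to 0.55 (female C with male B). Pairing by letter was thus not apparent, but 3 libraries of each sex cannot decide whether the letters mark pairs. With no filter on low counts, 12 genes in all were called in place of 5. The median log2 fold change ranged from -0.17 without female C to -0.0096 without female A, and was -0.034 with GC trends removed. By CPM in place of RPKM, which favours long genes, the shares were 96.1% for Tuba1a, 34.97% for Tubb3, 71.5% for Stmn2, 78.9% for Map1b, 77.4% for Dpysl2 and 65.2% for Mapre2. With only the length that no other gene shares, Tubb3 took 35.6% of the β-tubulin level, and the level would be 19418 RPKM for Tuba1a, 573 for Tuba1b, 4.24 for Tuba1c, 19.8 for Tuba4a, 1212 for Tubb2a, 577 for Tubb2b and 244 for Tubb4b. At a threshold of 2-fold, 1 gene was past it in female A, 0 in female B, 1 in female C, 0 in male A, 2 in male B and 1 in male C. Every other value tabulated under these alternatives stayed within 1 SD, the same side of the threshold or 1.5 times the reported count. Depth limits Tuba8 and Tubb1, with at most 13 and 3 reads in a library.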
